A study of Mus musculus with 10 samples.

Results

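Olfactory neurons carry genes whose mRNA level follows how much odor-driven activity the cells receive. Here 9 genes listed as activity-dependent were followed in mice with extra H2BE, a histone variant of olfactory neurons. They were S100a5, Pcp4l1 and Cyp4x1, described as genes of sensory neurons, and the immediate early genes Egr1, Egr3, Fos, Junb, Nr4a1 and Arc. They were taken by name, as the probe sets carrying a single gene symbol from this list, and each of the 9 had 1 such probe set among 21789 probe sets with 1 symbol. Because the members were selected on earlier results of the same arrays, the differences between genotypes that chose them are given as a description, with no test. Tests were kept for the variation of arrays within a genotype and for genes outside the 9.

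RNA was taken from the whole main olfactory epithelium (MOE), where odors are detected, of mice aged 5 weeks and measured on Affymetrix Mouse Gene 1.0 ST arrays. The 4 H2be-GF arrays came from a transgenic line in which the promoter of Omp, the gene of olfactory marker protein, drives Flag-tagged H2be, on top of the intact endogenous gene. This line descends from founders bred to C57Bl/6, and a band of mature neurons in one zone of the tissue does not express the transgene. The 6 WT arrays came from mice without the transgene. The labels give neither odor stimulation nor deprivation for either group, and the mice were in standard housing. Several mice were pooled for each array, more of them for an H2be-GF array than for a WT array, so the spread and the p-values given here are between pools.

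In an olfactory neuron, an odorant receptor acts through cAMP to open a cation channel, and the calcium that enters, with protein kinases, switches on immediate early genes within minutes through factors such as CREB and SRF. Fos and Junb encode partners in the AP-1 transcription factor, Egr1 and Egr3 are zinc finger factors, Nr4a1 is an orphan nuclear receptor, and Arc encodes a protein that regulates receptors at synapses. Their known direction with neuronal activity is upward and brief. S100a5, a calcium-binding protein of the S100 family, and Pcp4l1, a small protein related to the calmodulin regulator Pcp4, also go up with odor activity and down when a nostril is closed. Cyp4x1 is a cytochrome P450 of the fatty acid hydroxylase family, and its direction with odor activity could not be taken from the sources at hand.

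The sequences before and at the gene starts are shown for genes of both kinds, because the immediate early genes are known to be switched on through CREB sites and the results below set the 2 kinds side by side. RefSeq promoters on GRCm38.p6, 250 bases before to 50 after each start, were at hand for 5 of the 9 genes, and those of Cyp4x1, Egr1, Egr3 and Arc are named only. Capitals mark TGACG, the half-site of the cAMP response element, on either strand (CGTCA on the strand shown is TGACG on the other), and TATAAA, the TATA box. S100a5 lies on the plus strand (chr3:90608272-90608571), Pcp4l1 on the minus strand (chr1:171196219-171196518), Fos on the plus strand (chr12:85473640-85473939) and Nr4a1 on the plus strand (chr15:101266596-101266895).
S100a5: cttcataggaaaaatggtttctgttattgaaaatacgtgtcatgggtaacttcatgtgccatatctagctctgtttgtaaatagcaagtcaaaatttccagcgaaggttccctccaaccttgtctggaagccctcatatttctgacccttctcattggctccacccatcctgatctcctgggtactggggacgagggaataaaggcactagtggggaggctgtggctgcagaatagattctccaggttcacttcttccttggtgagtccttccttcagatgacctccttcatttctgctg
Pcp4l1: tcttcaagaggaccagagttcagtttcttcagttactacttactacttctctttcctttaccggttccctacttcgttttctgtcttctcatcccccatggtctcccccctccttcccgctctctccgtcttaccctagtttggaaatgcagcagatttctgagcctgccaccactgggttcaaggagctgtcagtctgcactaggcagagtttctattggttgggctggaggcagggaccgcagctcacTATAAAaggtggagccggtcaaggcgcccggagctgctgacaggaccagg
Fos: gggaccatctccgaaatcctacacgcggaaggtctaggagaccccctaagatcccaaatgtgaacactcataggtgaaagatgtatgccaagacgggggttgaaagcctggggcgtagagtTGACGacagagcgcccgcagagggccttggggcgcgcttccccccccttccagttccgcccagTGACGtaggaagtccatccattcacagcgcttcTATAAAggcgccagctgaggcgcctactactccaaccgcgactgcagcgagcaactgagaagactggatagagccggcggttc
Nr4a1: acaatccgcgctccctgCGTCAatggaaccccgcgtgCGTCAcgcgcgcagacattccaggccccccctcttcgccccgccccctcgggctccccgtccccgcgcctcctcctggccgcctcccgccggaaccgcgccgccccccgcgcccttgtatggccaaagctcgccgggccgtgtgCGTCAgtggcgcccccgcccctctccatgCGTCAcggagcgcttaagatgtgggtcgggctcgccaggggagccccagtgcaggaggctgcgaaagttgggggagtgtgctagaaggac

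Among the immediate early genes, Fos held 2 TGACG half-sites, at -129 and -66 from the start, and a TATA box at -33. Nr4a1 held 4 half-sites, at -233, -213, -69 and -40, and no TATAAA. Junb (chr8:84978699-84978998, minus strand) held 1 half-site at -106 and a TATAAA at the start itself. The S100a5 window held neither motif, and that of Pcp4l1 held TATAAA at the start and no half-site. Among all 32851 promoters of the set, 20.8% held TGACG on either strand and 13.6% held TATAAA. The full element TGACGTCA (1.79% of all promoters), the AP-1 site TGANTCA (7.81%), the Ebf site TCCCNNGGGA (0.904%), the CArG box of SRF (1.63%) and the MEF2 site (0.557%) were searched on both strands and had no match in the 5 windows, and the Egr site GCGNGGGCG (5.55%) matched in Nr4a1 at -60. These are matches of letters within the windows and do not show that a factor binds.

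The arrays were alike in level: their medians lay between 7.74 and 7.91 on the log2 scale and they correlated at 0.969 to 0.988. By the level of Xist, an RNA of the inactive X chromosome, they fell into 5 arrays at 11.69 or above and 5 at 4.61 or below, with 2 H2be-GF and 3 WT arrays in each set. Of 23194 probe sets tested between genotypes with limma, 20 were called at an adjusted p under 0.05, or 0.0862%. The Hist2h2be probe set, for the endogenous gene of H2BE, was at 11.84 ± 0.07 in H2be-GF and 12.07 ± 0.05 in WT (SD, n = 4 and 6, difference -0.23, SE 0.06, limma adjusted p 0.297). Whether its probes lie in the transgene was not analysed here. By quantitative PCR the authors report transgene expression well above that of the endogenous gene in this line. The probe set is therefore not read as the total level of H2be. Omp was at 12.78 ± 0.03 in H2be-GF and 12.88 ± 0.04 in WT (difference -0.10, SE 0.05, limma adjusted p 0.659). The transgene holds the Omp genomic region with its coding sequence replaced, and whether the Omp probes read it was not analysed here. For Hist2h2be and for Omp each H2be-GF array lay below each WT array, against 1.60% of all probe sets tested. The 10 markers of mature olfactory neurons were all detected, with levels of 10.69 or above.

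The 9 genes did not go one way between genotypes. S100a5, Pcp4l1, Cyp4x1, Egr1, Fos and Junb, 6 of the 9, had lower means in H2be-GF, and Egr3, Nr4a1 and Arc had higher means. The genotypes did not overlap for S100a5 and Pcp4l1, both lower in H2be-GF, against 1.60% of all probe sets tested that did not overlap in that direction. They did not overlap either for Egr3, higher in H2be-GF, against 1.29% of all probe sets. The median difference over the 9 genes was -0.05 on the log2 scale. As the genes were chosen with this comparison in view, nothing is read from these counts.

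**Figure D1:**
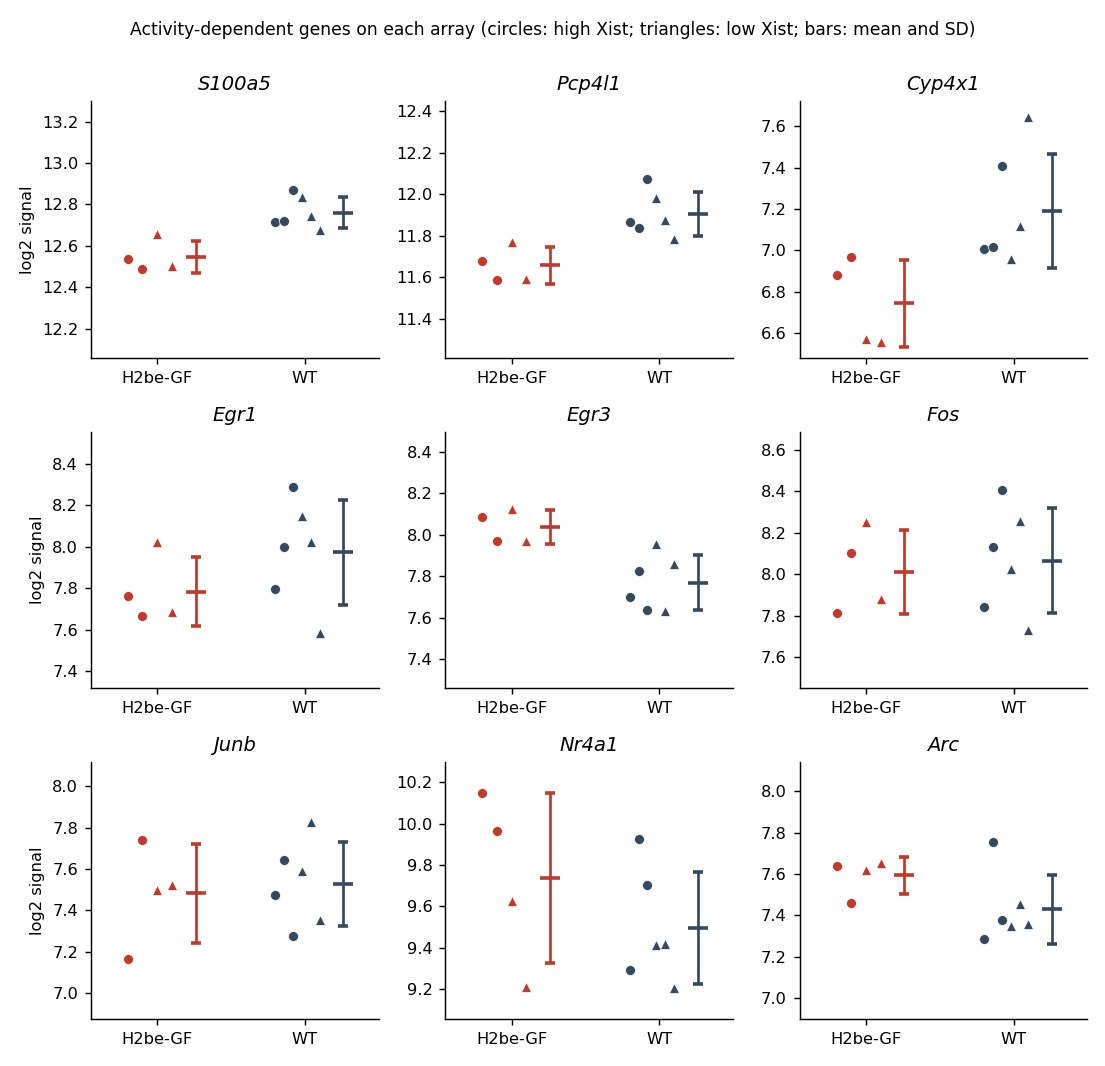
Log2 expression of each of the 9 genes in every array, one panel per gene, with H2be-GF arrays left of WT arrays, circles for high-Xist and triangles for low-Xist arrays, and bars for the genotype mean and SD (n = 4 and 6). S100a5 and Pcp4l1 lie lower in each H2be-GF array than in any WT array and Egr3 lies higher, while the genotypes overlap for the rest.

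S100a5 and Pcp4l1, the activity genes typical of sensory neurons, were both lower in H2be-GF epithelium by about the same amount. S100a5 read 12.54, 12.49, 12.66 and 12.50 on the H2be-GF arrays, against a lowest value of 12.68, a median of 12.73 and a highest of 12.87 over the 6 WT arrays. Each H2be-GF array was thus below each WT array, with a gap of 0.02 between the nearest arrays. On this scale of log2 signal the means were 12.55 ± 0.08 in H2be-GF and 12.76 ± 0.08 in WT (SD, n = 4 and 6), a difference of -0.21 (SE 0.06) or a fold of 0.863.

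Pcp4l1 read 11.68, 11.59, 11.77 and 11.59 on the H2be-GF arrays, against 11.78, 11.87 and 12.07 as lowest, median and highest of the WT arrays. H2be-GF array 3, the highest of its genotype, came within 0.01 of WT array 6, the lowest WT array, without crossing it. The means were 11.66 ± 0.09 in H2be-GF and 11.90 ± 0.11 in WT, a difference of -0.25 (SE 0.07) or a fold of 0.843. For both genes the known response to odor activity is a rise, so the H2be-GF means lay on the side of less activity. In whole tissue, fewer cells of a type and less RNA per cell cannot be told apart.

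Markers of mature olfactory neurons also had lower values in H2be-GF. Of the 10 markers 8 had a lower mean in H2be-GF, with a median difference of -0.09, and their summed linear signal was 40340 to 42133 over the H2be-GF arrays against 42250 to 44724 over the WT arrays, none of the 10 being at 0. The mean log2 value of the 10 markers overlapped slightly, at 11.801 to 11.832 over the H2be-GF arrays and 11.830 to 11.923 over the WT arrays. Taken relative to the mean of these markers on each array, an alternative added after seeing the data, the difference was -0.16 for S100a5 and -0.19 for Pcp4l1. Within the high-Xist set the differences were -0.25 for S100a5 and -0.29 for Pcp4l1, and within the low-Xist set -0.17 and -0.20 in that order. The part of the markers in either difference was not tested.

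Cyp4x1 had the greatest mean difference of the 9 genes and also a wide spread. It read 6.88, 6.97, 6.58 and 6.56 on the H2be-GF arrays, against 6.96, 7.07 and 7.64 as lowest, median and highest of the WT arrays. Of the H2be-GF arrays 3 lay below every WT array, and array 2 was just above WT array 4. The means were 6.75 ± 0.21 in H2be-GF and 7.19 ± 0.27 in WT, a difference of -0.45 (SE 0.14) or a fold of 0.734. Its size depended on the set of arrays, at -0.22 within the high-Xist set and -0.67 within the low-Xist set, where WT array 6 carried its highest value.

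Of the 6 immediate early genes, 3 had a lower mean and 3 a higher mean in H2be-GF, including opposite directions within the Egr family. Egr1 read 7.76, 7.66, 8.02 and 7.68 on the H2be-GF arrays, against 7.58, 8.01 and 8.29 as lowest, median and highest of the WT arrays. The WT arrays spanned the H2be-GF arrays on both sides. The means were 7.78 ± 0.17 in H2be-GF and 7.97 ± 0.25 in WT, a difference of -0.19 (SE 0.13). It was -0.31 within the high-Xist set and -0.06 within the low-Xist set.

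Egr3, which shares its DNA-binding domain type with Egr1, stood the other way round. It read 8.09, 7.97, 8.13 and 7.97 on the H2be-GF arrays, against 7.63, 7.76 and 7.96 as lowest, median and highest of the WT arrays. Each H2be-GF array was above each WT array, by 0.01 at the nearest. The means were 8.04 ± 0.08 in H2be-GF and 7.77 ± 0.13 in WT, a difference of 0.27 (SE 0.08) or a fold of 1.21. Within the high-Xist set it was 0.31 and within the low-Xist set 0.23.

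Fos and Junb, the AP-1 partners, hardly differed in mean. Fos read 7.81, 8.10, 8.25 and 7.88 on the H2be-GF arrays, against 7.73, 8.08 and 8.40 as lowest, median and highest of the WT arrays, a difference of -0.05 (SE 0.14). Junb read 7.16, 7.74, 7.50 and 7.52 on the H2be-GF arrays, against 7.28, 7.53 and 7.83 for WT, a difference of -0.05 (SE 0.13). The genotypes overlapped almost wholly for both, and for both the sign was lost when H2be-GF array 1, the lowest H2be-GF array, was left out (0.01 for Fos and 0.06 for Junb). The means were 8.01 ± 0.20 in H2be-GF and 8.07 ± 0.25 in WT for Fos, and 7.48 ± 0.24 in H2be-GF and 7.53 ± 0.20 in WT for Junb. Within the high-Xist set the differences were -0.17 for Fos and -0.01 for Junb, and within the low-Xist set 0.06 for Fos and -0.08 for Junb.

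Nr4a1, the nuclear receptor gene, had the largest SD within genotypes of the 9 genes when both genotypes were pooled (0.33, against 0.25 for Cyp4x1, which had the wider range over all arrays). It read 10.15, 9.96, 9.63 and 9.21 on the H2be-GF arrays, against 9.21, 9.42 and 9.93 as lowest, median and highest of the WT arrays. H2be-GF arrays 1 and 2 lay above every WT array, while array 4 was level with the lowest WT array. The means were 9.74 ± 0.41 in H2be-GF and 9.49 ± 0.27 in WT, a difference of 0.24 (SE 0.18) that was 0.41 within the high-Xist set and 0.07 within the low-Xist set, and 0.11 without H2be-GF array 1.

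Arc read 7.64, 7.46, 7.62 and 7.65 on the H2be-GF arrays, against 7.29, 7.37 and 7.75 as lowest, median and highest of the WT arrays. The overlap came from WT array 2 at 7.75, above every other array. The remaining WT arrays lay at 7.45 or below, under the lowest H2be-GF array. The means were 7.59 ± 0.09 in H2be-GF and 7.43 ± 0.17 in WT, a difference of 0.16 (SE 0.09), which was 0.23 without WT array 2. It was 0.08 within the high-Xist set and 0.25 within the low-Xist set. For all 6 of these genes the known response to activity is a rise, so the H2be-GF means of Egr3, Nr4a1 and Arc lay on the side of more activity and those of Egr1, Fos and Junb on the side of less.

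Immediate early genes are also expressed outside neurons, and markers of other cell types also had different means. The 4 markers of respiratory ciliated cells all had lower means in H2be-GF (median difference -0.16), with a summed linear signal of 2817 to 3166 on H2be-GF arrays and 3222 to 3470 on WT arrays. The 7 markers of neutrophils and marrow were also all lower (median -0.20, 4813 to 6099 on H2be-GF arrays and 5452 to 7548 on WT arrays). Of the 6 macrophage markers 5 were higher (median 0.06, 1972 to 2369 on H2be-GF arrays and 2003 to 2225 on WT arrays). Both red cell markers (median -0.27) and all 3 horizontal basal cell markers (-0.15) were lower, and all 4 sustentacular cell markers were higher (0.04). Of the 57 markers tested over 12 cell types limma called 0, with 1 called under a trended, robust variance, and 7 (12.3%) had an unadjusted p under 0.05, against 8.43% of all probe sets tested. No marker was at 0 on any array, and their part in the differences of the 9 genes was not tested.

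The spread of arrays within a genotype differed widely among the 9 genes. Nr4a1 had a within-genotype SD of 0.33, above that of 99.6% of the 4266 probe sets within 0.5 of its mean level. Fos (0.23) lay above 92.8% and Egr1 (0.22) above 89.1% of the probe sets at their levels. Egr3 (0.12) and Arc (0.14) were among the steadier, above only 8.15% and 16.7% of theirs. S100a5 (0.08) and Pcp4l1 (0.10) lay above 65.9% and 76.4%. The median over all probe sets tested was 0.15. These shares are a description of the pools.

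Within genotypes, S100a5, Pcp4l1 and Egr1 went up and down together from array to array, while no relation with Cyp4x1, Egr3, Junb, Nr4a1 or Arc passed the test. This variation was centred on each genotype's own mean and so did not use the difference that chose the genes. All 36 pairs of the 9 genes were compared over the 10 arrays with a two-sided exact permutation test over the 17280 orders within genotype, with p adjusted over the 36 pairs, and 3 pairs passed 0.05. By Spearman's rho 2 of these 3 passed, and without H2be-GF array 3 only the pair of S100a5 and Pcp4l1 did. The arrays shared a tissue, a protocol and a joint normalization.

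**Figure D2:**
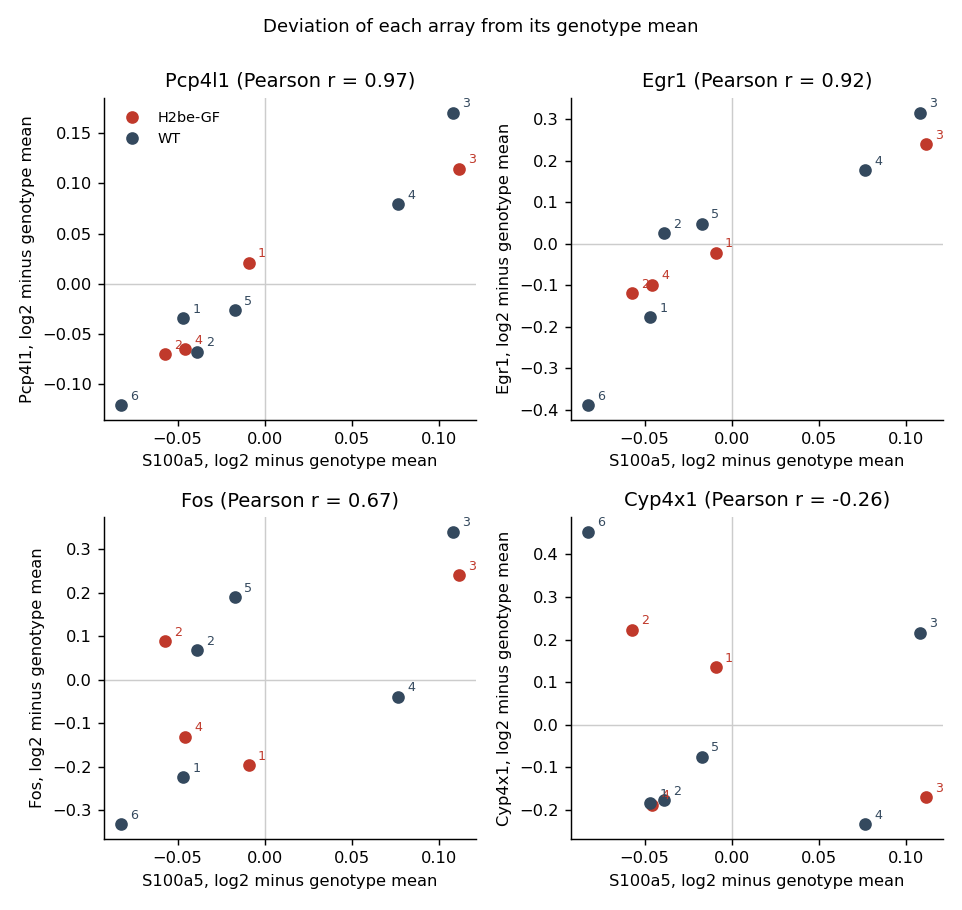
Log2 value minus the genotype mean on each array, with S100a5 on the horizontal axis and Pcp4l1, Egr1, Fos or Cyp4x1 on the vertical axis, H2be-GF arrays in red and WT arrays in dark grey, numbered by replicate. Pcp4l1 (r = 0.97) and Egr1 (r = 0.92) climb with S100a5 towards H2be-GF array 3 and WT arrays 3 and 4, Fos does so more loosely (r = 0.67), and Cyp4x1 does not (r = -0.26).

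S100a5 and Egr1 had r = 0.92 with an exact permutation p of 5.79e-05, the smallest these orders can give, and 0.00208 adjusted (rho = 0.94, exact permutation p 5.79e-05, adjusted 0.00208). Without H2be-GF array 3 and WT array 3, whose centred S100a5 lay farthest from the median, r was 0.85. It was 0.93 within the high-Xist set and 0.92 within the low-Xist set. Values of r within a set, here and below, rest on 5 arrays each and were not tested. Centred S100a5 spanned from -0.08 on WT array 6 to 0.11 on H2be-GF array 3, while Egr1 spanned -0.39 on WT array 6 to 0.32 on WT array 3.

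S100a5 and Pcp4l1 had r = 0.97 with an exact permutation p of 0.000289, adjusted 0.00521 (rho = 0.94, p 0.000926, adjusted 0.0167). It was 0.96 without H2be-GF array 3 and WT array 3, 0.98 within the high-Xist set and 1.00 within the low-Xist set. Pcp4l1 and Egr1 had r = 0.90, exact permutation p 0.000810, adjusted 0.00972 (rho = 0.85, p 0.00521, adjusted 0.0625), and 0.79 without H2be-GF array 3 and WT array 3, with 0.85 within the high-Xist set and 0.94 within the low-Xist set. The 3 arrays of highest S100a5 within genotype (H2be-GF array 3, WT arrays 3 and 4) stood apart from the other 7. Over those 7 arrays r was 0.92 for S100a5 with Pcp4l1, 0.86 for S100a5 with Egr1 and 0.66 for Pcp4l1 with Egr1, a description added after seeing the data. All 3 pairs lost the 0.05 threshold with a second quantile normalization of the deposited values (r = 0.86, 0.86 and 0.79, smallest adjusted p over the 36 pairs 0.0771) and with each array centred on its median (smallest 0.0521).

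Fos had positive r with these genes without passing the adjusted threshold. Egr1 and Fos had r = 0.82, exact permutation p 0.00880, adjusted 0.0792 (rho = 0.82, p 0.0118, adjusted 0.106), and r was 0.61 without WT arrays 3 and 6, its 2 extremes. S100a5 and Fos had r = 0.67 (exact permutation p 0.0564, adjusted 0.406), and Pcp4l1 and Fos r = 0.64 (0.0718, adjusted 0.431). Both rested on H2be-GF array 3 and WT array 3, without which r was 0.26 for S100a5 with Fos and 0.16 for Pcp4l1 with Fos. Among the 15 pairs of immediate early genes 0 passed after adjustment, and Egr1 with Fos was the 1 pair with an unadjusted exact permutation p under 0.05.

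The other 30 pairs had r between -0.40, for Cyp4x1 with Junb, and 0.36, for Nr4a1 with Arc, with adjusted p of 0.935 or above by exact permutation. These values depended on single arrays. Without H2be-GF array 2 and WT array 6, r was -0.72 for Cyp4x1 with Junb. Without H2be-GF array 1 and WT array 2, r was -0.46 for Nr4a1 with Arc. Cyp4x1 ran against Egr1 (r = -0.39) on the pooled arrays, but r was 0.36 without H2be-GF array 2 and WT array 6. The sign for this pair also turned between the sets, at 0.85 within the high-Xist set and -0.86 within the low-Xist set (n = 5 each, untested). Egr1 and Egr3 were not detectably related over the 10 arrays (r = -0.01, exact permutation p 0.989). Their r was 0.88 over the H2be-GF arrays and -0.22 over the WT arrays (n = 4 and 6, untested). Without WT arrays 3 and 6 it was 0.68. Egr3 split likewise with S100a5 (0.88 in H2be-GF and -0.08 in WT) and with Pcp4l1 (0.97 and -0.23). A p that misses the threshold does not show that genes vary separately.

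**Figure D3:**
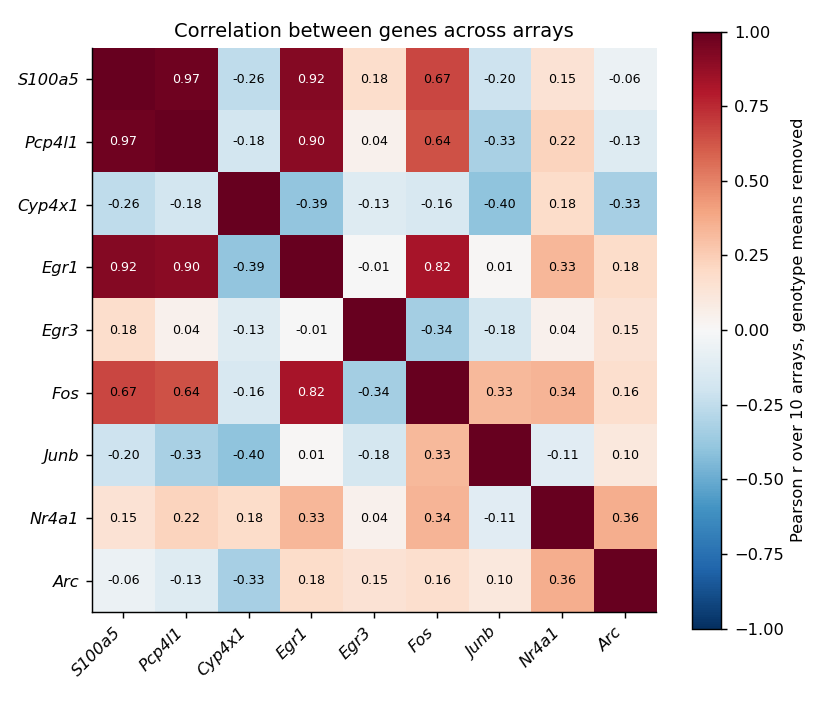
Pearson r for each of the 36 pairs of the 9 genes over the 10 arrays, on log2 values centred on the genotype mean. S100a5, Pcp4l1, Egr1 and Fos have r of 0.64 to 0.97 with one another, and the other 30 pairs lie between -0.40 and 0.36.

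With each gene taken relative to the mean of the mature neuron markers, r was 0.98 for S100a5 with Pcp4l1, 0.90 for S100a5 with Egr1 and 0.87 for Pcp4l1 with Egr1, and the 3 pairs still passed (largest adjusted p 0.0347, exact permutation). Subtracting the same mean from both genes of a pair can itself raise r, so these values do not separate the relations from neuron content. The level of S100a5 itself had r = 0.19 with the mean of those markers. Over the lists of cell type markers and heat shock genes, set against S100a5 and against Fos, r lay between -0.66 and 0.56, and none of the 26 relations passed (smallest adjusted exact permutation p 0.794). The lowest r was that of S100a5 with 8 heat shock genes, which encode chaperones, with an unadjusted exact permutation p of 0.0494.

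Over 21586 probe sets with 1 symbol, Pcp4l1 was the gene whose within-genotype pattern was most like that of S100a5 (r = 0.97). Next came Uox, the urate oxidase gene (0.92), Anks1b (0.92), Rnf123 (0.92) and, in place 5, Egr1 (0.92). Fos took place 459 in that order. Nearest to Fos were Dand5 (0.98), Rtn4rl2 (0.92), Trnau1ap (0.92), Gsto1 (0.91) and Nfe2l3 (0.91), with Egr1 in place 37 (0.82). With 10 arrays and this many probe sets, high values of r are found for many genes, so these orders are a description. The difference between genotypes was -0.27 (SE 0.08) for Uox (limma adjusted p 0.375), and -0.15 (SE 0.09) for Dand5 (0.685).

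Genes outside the 9 were counted from 11 lists, chosen with earlier results of these data known. Of these, 7 lists hold activity-response genes and their signalling, and 4 hold relatives of the sensory members, calmodulin genes and heat shock genes. Of 122 genes tested in them limma called 0 between genotypes after adjustment over all probe sets, where 0.0862% of all were called, and the smallest adjusted p was 0.296. At an unadjusted p under 0.05 there were 16, or 13.1%, of which 11 were higher and 5 lower in H2be-GF. Of all 23194 probe sets tested 8.43% had such a p, 1010 higher and 945 lower. In the 7 activity lists the count was 12 of 81 genes (14.8%), 9 higher and 3 lower, with a median difference of 0.01 over the 81 on the log2 scale. These 7 lists mix genes raised by activity, genes lowered by it and signalling genes. Higher and lower thus have no single meaning for activity in this count. In the other 4 lists it was 4 of 41 (9.76%), 2 higher and 2 lower, with a median of -0.02.

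**Figure D4:**
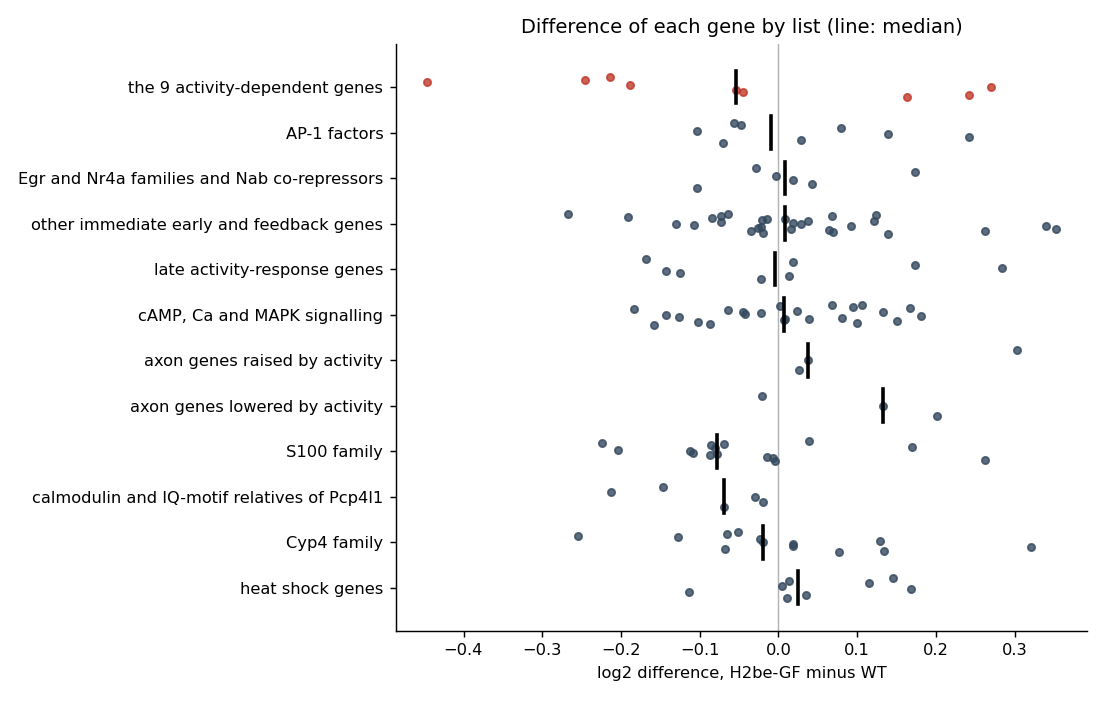
Log2 difference H2be-GF minus WT of each gene, as 1 point, for the 9 genes in red (top row) and for the 11 lists in dark grey, with a black line at each median. The lists lie on both sides of 0, from a median of -0.08 for the S100 family to 0.13 for axon genes lowered by activity.

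The immediate early, related and feedback genes beyond the 6 members, in 3 lists of 43 genes, had 22 higher and 21 lower means in H2be-GF, a median of 0.01, and 3 genes up against 1 down by an unadjusted p under 0.05. Over all probe sets tested, 8.43% had such a p in either direction, and nothing is read from the counts. In the AP-1 list of 8, Jund differed by 0.14 (SE 0.07, limma adjusted p 0.647) and Atf3, a stress-inducible member, by 0.24 (SE 0.14, adjusted p 0.679). Among the other Egr and Nr4a genes and the Nab co-repressors of Egr factors, 6 genes, Egr4 differed by 0.17 (SE 0.14, adjusted p 0.778) and Nr4a3 by -0.10 (SE 0.21, adjusted p 0.929). Plk3, a polo-like kinase, was at 6.80 ± 0.10 in H2be-GF and 6.45 ± 0.16 in WT (difference 0.35, SE 0.09, limma adjusted p 0.306). Maff, a small Maf factor, was at 8.12 ± 0.14 in H2be-GF and 7.86 ± 0.05 in WT (0.26, SE 0.07, adjusted p 0.334). Its genotypes did not overlap, against 1.29% of all probe sets tested without overlap in that direction.

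Later activity genes encode secreted and synaptic proteins. Of these 8 genes, 2 had an unadjusted p under 0.05, both higher in H2be-GF. Over all 23194 probe sets tested, 8.43% had such a p in either direction, 1010 of them higher and 945 lower. The 2 genes were Nrn1, the gene of neuritin (0.28, SE 0.09, limma adjusted p 0.404), and Nptx2, a neuronal pentraxin (0.17, SE 0.07, adjusted p 0.566). Of 24 genes of the cAMP, calcium and MAPK route to CREB, SRF and MEF2, 14 were higher and 10 lower, with Rps6ka5, a kinase of CREB, at 0.18 (SE 0.07, adjusted p 0.466) and Map2k2, a MAPK kinase, at -0.16 (SE 0.06, adjusted p 0.463). These did not pass the adjusted threshold. The genotypes did not overlap for Map2k2, lower in H2be-GF, against 1.60% of all probe sets tested in that direction.

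Axon guidance genes of olfactory neurons respond to activity in opposite directions, with Kirrel2 and Nrp1 listed here as raised and Kirrel3 and Efna5 as lowered. Nrp1, a semaphorin receptor, was at 9.61 ± 0.15 in H2be-GF and 9.31 ± 0.08 in WT (0.30, SE 0.08, limma adjusted p 0.296), with no overlap, and passed the adjusted threshold under a trended, robust variance. Of all probe sets tested, 1.29% were likewise higher in H2be-GF with no overlap. Kirrel2 differed by 0.04 (SE 0.09, adjusted p 0.944). Efna5 differed by 0.20 (SE 0.07, adjusted p 0.465) and Kirrel3 by 0.13 (SE 0.07, adjusted p 0.670). Sema3a, the remaining gene listed as lowered and named here after its value was seen, differed by -0.02 (SE 0.08).

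Relatives of the sensory members were looked at in the same way. In the S100 family 12 of 15 genes were lower and 3 higher, with S100a3 at -0.22 (SE 0.07, limma adjusted p 0.399) and S100g, a vitamin D-dependent calcium-binding protein, at 0.26 (SE 0.11, adjusted p 0.544). All 5 genes tested in the list of calmodulin genes and calmodulin-binding relatives of Pcp4l1 had lower means. Calm2 (-0.02, SE 0.05) and Gap43 (-0.03, SE 0.06) differed by less than their SE. Nrgn, which binds calmodulin, was at -0.21 (SE 0.07, adjusted p 0.430) and Pcp4 at -0.15 (SE 0.10, adjusted p 0.739). Nrgn had no overlap between genotypes, against 1.60% of all probe sets tested in that direction. In the Cyp4 family 6 were higher and 7 lower, with Cyp4f18 at 0.32 (SE 0.13, adjusted p 0.544) and Cyp4f13 at 0.13 (SE 0.07, adjusted p 0.649). S100a8 and S100a9 belong to the S100 family and to the neutrophil markers, which were lower in H2be-GF as given above. Of the 8 heat shock genes 7 were higher, with Hspa1a at 0.15 (SE 0.08, adjusted p 0.677) and Hsp90aa1 at -0.11 (SE 0.06, adjusted p 0.670).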

How the data were processed

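Arrays of 4 H2be-GF and 6 WT pools of MOE were used. The authors looked for outliers with arrayQualityMetrics, ran Affymetrix Expression Console (IterPLIER summaries after sketch-quantile normalization) and deposited log2 values per probe set. Tool versions and a build are not given in the sources used here. A shift common to the majority of genes is lost in such a normalization.

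The platform annotation gave 21789 probe sets 1 symbol, 1621 several and 12146 none. Of those with 1 symbol, 21698 matched a RefSeq table of GRCm38.p6. The members and all gene lists were chosen with earlier results of these data known.

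Probe sets with a symbol and a mean above 5, 23194 in all, were tested with limma 3.58.1 (R 4.3.3, two-sided, eBayes without covariates) and Benjamini-Hochberg adjustment at 0.05. For lists, the probe set with the highest mean stood for each gene. Relations were tested on values centred on the genotype mean, with exact permutation within genotype (Python 3.11.15, SciPy 1.17.1). Plots were made with matplotlib 3.10.9. Besides the 9 genes, Omp and Hist2h2be, the text names up to 3 called genes of each list (where none was called, the 2 of smallest p), and the 5 genes most like S100a5 and Fos. Both procedures were tested on simulated data. Alternatives covered normalization, an added constant, the variance model, weights per array, a block on replicate number, Xist as covariate, filters and leaving out each array. Fits run separately in each Xist set, values relative to neuron markers, and r without the arrays farthest from the median on the centred scale were chosen after seeing the data. The number of arrays limits the precision.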

Additional observations from a re-analysis of the deposited data

Results flagged for a closer look

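For the genes named from the lists and the 9 genes, 64 groups of arrays (32 genes in each genotype) were screened for an array that stood apart from its group, and 4 were found. Such a screen marks about 5% of groups by chance alone.

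Arc was at 7.75 on WT array 2, where the other WT arrays lay between 7.29 and 7.45. Without that array the difference H2be-GF minus WT was 0.23. Rps6ka5 was at 8.51 on H2be-GF array 1, where the other H2be-GF arrays were all at 8.67. Nrgn was at 7.57 on WT array 1, where the other WT arrays lay between 7.24 and 7.36. Cyp4f18 was at 5.60 on WT array 6, where the other WT arrays lay between 6.08 and 6.28. WT array 6 was also the WT array with the lowest S100a5, Pcp4l1, Egr1, Fos and Nr4a1 and the highest Cyp4x1.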

How the results depend on the processing

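The 20 calls between genotypes became 114 with a trended, robust variance, 36 with a minimum mean of 7, 5 with the replicate number as a block (replicate block), and 11 to 19 when an array was left out, the fewest without H2be-GF array 1 and 13 without H2be-GF array 3. The labels do not say that a number marks a shared litter or day. Same-numbered arrays deviated from their genotype means with correlations of 0.53, 0.22, -0.42 and 0.26, arrays of other numbers with -0.50 to 0.50, and 3 of the 8 arrays numbered in both genotypes correlated best with their own number, so the numbers were not taken as pairs. Of the 122 list genes 1, Nrp1, was called with the trended variance, and 0 in each fit that left out an array. The 3 relations passing 0.05 became 0 with a second quantile normalization, 0 with median centring, 0 when centred within genotype and Xist set (r = 0.98, 0.92 and 0.89, smallest adjusted exact permutation p 0.25 over 144 orders), and 1 to 4 when an array was left out, with only S100a5 and Pcp4l1 left without H2be-GF array 3 (adjusted exact permutation p 0.0417). Over those fits r ran between 0.97 and 0.98 for S100a5 with Pcp4l1, 0.88 and 0.95 for S100a5 with Egr1, and 0.86 and 0.95 for Pcp4l1 with Egr1. With centring within genotype and Xist set, the 144 orders give no p below 0.00694. After adjustment over 36 pairs, a pair could then not pass on its own, so nothing is read from that 0.

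The differences of S100a5 (-0.25 to -0.19 when an array was left out), Pcp4l1 (-0.28 to -0.21), Cyp4x1 (-0.52 to -0.36), Egr1 (-0.27 to -0.13), Egr3 (0.24 to 0.31), Nr4a1 (0.11 to 0.42) and Arc (0.13 to 0.23) kept their sign in 19 of 19 alternatives. Fos (-0.13 to 0.01) kept it in 15, and lost it without H2be-GF array 1 or WT array 3, within the low-Xist set and relative to neuron markers. Junb (-0.13 to 0.06) kept it in 16, and lost it without H2be-GF array 1 or WT array 5 and relative to neuron markers. For S100a5, Pcp4l1 and Egr3 the genotypes do not overlap. Leaving out an array or taking either Xist set could therefore not turn their sign, so those alternatives do not bear on them. The causes were not tested. Pools of whole tissue limit what the arrays show of single neurons.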
